A study of Mus musculus with 32 samples.

Results

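Parent-of-origin bias of allelic expression was measured in the adult medial prefrontal cortex (PFC) of mice born to reciprocal crosses between CAST/EiJ and C57BL/6J (B6), 2 inbred strains whose DNA differs at many bases. F1i animals had a CAST/EiJ mother and a C57BL/6J father, and F1r animals had a C57BL/6J mother and a CAST/EiJ father. Tissue was microdissected at 5 weeks, and polyadenylated RNA was pooled from 8 to 10 animals into 4 pools, a male and a female pool of each cross. Each pool was sequenced as 2 technical libraries, so 8 of the 32 libraries of the series entered the PFC analysis, chosen by their tissue and cross labels. For comparison, 8 libraries of the adult preoptic area, from male and female pools of the same crosses at 5 weeks, were also used. So were 8 libraries of whole embryonic brain of both crosses at day 15, whose sex is not given. No parental-strain sample was part of the comparison, and no animal carried an engineered allele or received a treatment. Sex and replicate cannot be told apart within a cross, since each cross had 1 pool of each sex. The deposited tables give, for each base that differs between the strains, the reads carrying the CAST base and those carrying the B6 base in each pool. Only bases read at least once in every pool are listed.

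Genomic imprinting marks one parental copy of a gene with DNA methylation in the germ line, so that only the copy from the mother or only the copy from the father is transcribed. Imprinted genes lie in domains where protein-coding genes and long noncoding RNAs of opposite parental direction share a control region, and brain is among the tissues in which many of them are active. A gene whose allelic bias follows the strain leans to CAST or to B6 in both crosses. A gene whose bias follows the parent leans to CAST in one cross and to B6 in the other, and this swap is what was tested. The maternal share is the percentage of a gene's allelic reads that came from the mother, which is the CAST base in F1i and the B6 base in F1r.

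The measurement rests on single bases, and the 29-base windows printed here show those that decide the main results. All are the plus strand of the mouse genome build NCBIM37 (mm9), 5′ to 3′, with the informative B6 base in capitals at position 15, counted from 1 at the 5′ end. The pairs show a base read mainly from the mother and a base read mainly from the father inside the same gene body. The substitution is given as the B6 base, the position and the CAST base.
Meg3, noncoding exon, maternal, A15C, chr12:110797917-110797945: gtgtgagcatgcaaAgagaacccagctag
H13, coding exon, maternal, A15T, chr2:152530379-152530407: agatccagcagccgAgactgaatccaaag
Hm13 entry, exon inside H13, paternal, A15G, chr2:152509081-152509109: aagaagtaaagccaAtgaattttattaca
Trappc9, untranslated exon, maternal, A15G, chr15:72420379-72420407: gtgctggctatggcAtatggaggacatgg
Peg13, intron of Trappc9, paternal, A15G, chr15:72639809-72639837: taacaaagagctgtAcaggcgttggctgg
Copg2, coding exon, maternal, A15G, chr6:30760410-30760438: ggctcagaagacttAaacaagggtcccag
AF217545, intron of Copg2, paternal, C15T, chr6:30756312-30756340: gtgggaggtggtaaCgtatctccaggtta
Mest, untranslated exon shared with Copg2, paternal, G15T, chr6:30697576-30697604: aaatatttagaagtGctcccttccggccc
Herc3, untranslated exon, maternal, G15T, chr6:58869406-58869434: atgcatggcttgttGcagcccagcccagc
Begain, coding exon, paternal, A15G, chr12:110271666-110271694: ttgcagggcgaggcAgcgcggccggcagc
Peg3, coding exon, paternal, T15G, chr7:6660311-6660339: tgctccgcaccaccTgcactggtgctggc
Rasgrf1, coding exon, paternal, A15T, chr9:89893527-89893555: gtccgaggatgaccAgaaccacagtgatg
Inpp5f, untranslated exon, paternal, A15G, chr7:135839306-135839334: gaattaacaatggtAaaactgtatttttc
Igf2, untranslated exon, maternal, C15T, chr7:149838023-149838051: gatgcattcattacCtgatcactgctccc

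Of 11035 autosomal genes with a mean of at least 20 allelic reads per pool, 49 had a called parental bias, or 0.444% of those tested. Maternal calls numbered 16 (0.145% of genes) and paternal calls 33 (0.299%). A gene was called when edgeR's quasi-likelihood test of the difference in log2 CAST:B6 between F1i and F1r passed a Benjamini-Hochberg adjusted p of 0.05 and its mean maternal share was above 50% in each cross or below 50% in each cross. That difference equals the sum of the 2 crosses' log2 maternal:paternal ratios, so a positive value means more maternal reads. The p-values set the bias against the spread between pools, which edgeR estimates partly from all tested genes together. A small p-value is therefore not a measure of how closely that gene's own pools repeat. Within a cross this spread is that between a male and a female pool, so any sex difference is part of it. Robust dispersion estimates ended 4 of the 49 calls, with edgeR adjusted p from 0.129 to 0.368. An unadjusted p below 0.05 was found for 583 genes. Over all tested genes the median maternal share was 49.5%, and 90% of genes lay between 44.6% and 54.4%. Of all tested genes, 604 (5.47%) had every pool on one side of 50%. Among the 49 called genes 48 did, which describes the calls and is no support for them. The call rule already asks for the mean of each cross on one side. The exception was Igf2.

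**Figure D1:**
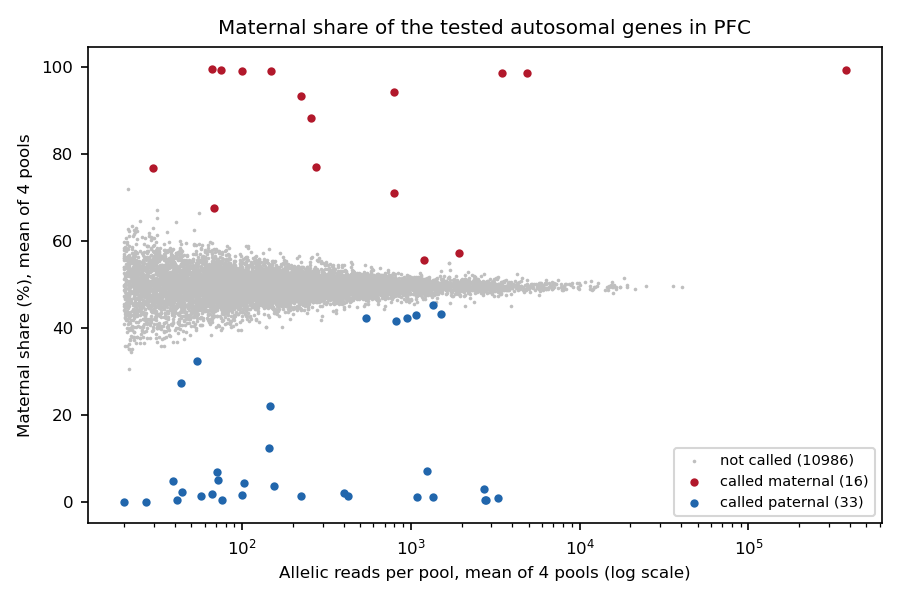
Each point is 1 of 11035 autosomal genes, with the mean number of allelic reads per pool on a logarithmic x axis and the mean maternal share of the 4 PFC pools on the y axis. Maternal calls (16, red) and paternal calls (33, blue) sit above and below the grey band of genes that were not called, whose spread narrows with depth.

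The tested autosomal genes held 4862696 and 7306067 allelic reads in the F1i male and female pools, against 5047691 and 5969324 in the F1r male and female pools. The CAST base took 49.8% and 51.5% of them in F1i, against 44.6% and 45.8% in F1r. Mitochondrial RNA, which is inherited from the mother, checked the labels: its paternal share was 1.32% and 0.711% in the F1i pools, against 0.0817% and 0.0830% in the F1r pools. X-linked reads were 96.2% and 98.6% maternal in the F1i and F1r male pools, against 68.0% and 37.7% in the F1i and F1r female pools, and are not analysed further. Cortical excitatory neuron markers summed to 9867 to 13880 CPM (allelic reads scaled to the pool total) in the PFC pools, against 926 to 1069 CPM in the pools of the preoptic area (POA), the hypothalamic region studied beside it. Hypothalamic markers summed to 0.501 to 2.66 CPM in PFC, against 339 to 509 CPM in POA. These sums run over unlike sets, since a marker without a listed base adds nothing. Of 13 cortical markers 11 were listed in PFC and 7 in POA, and of 12 hypothalamic markers 1 was listed in PFC and 8 in POA. Oligodendrocyte markers differed between PFC pools, with 3099 and 2206 CPM in F1i males and females, against 1728 and 5466 in F1r males and females, and their part in the results was not tested. Bulk RNA cannot tell a partial share in every cell from a complete bias in some cells.

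The called genes fell into a near-complete and a partial class. The called parent supplied at least 95% of reads on average in 27 genes, 7 maternal and 20 paternal. It supplied 85% to 95% in 7 genes, 70% to 85% in 5, 60% to 70% in 2 and 50% to 60% in 8. The median maternal share was 93.7% among maternal calls and 2.91% among paternal calls. The calls lay on 12 chromosomes, with 15 on chromosome 7, 9 on chromosome 12 and 7 on chromosome 6. All these counts are of entries as listed. Names that share bases, such as Snurf and Snrpn or AK080655, AK083195 and AK035901, are each counted. The calls also include Atpase6 and 5830418K08Rik, which are described below with mitochondrial sequence.

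**Figure D2:**
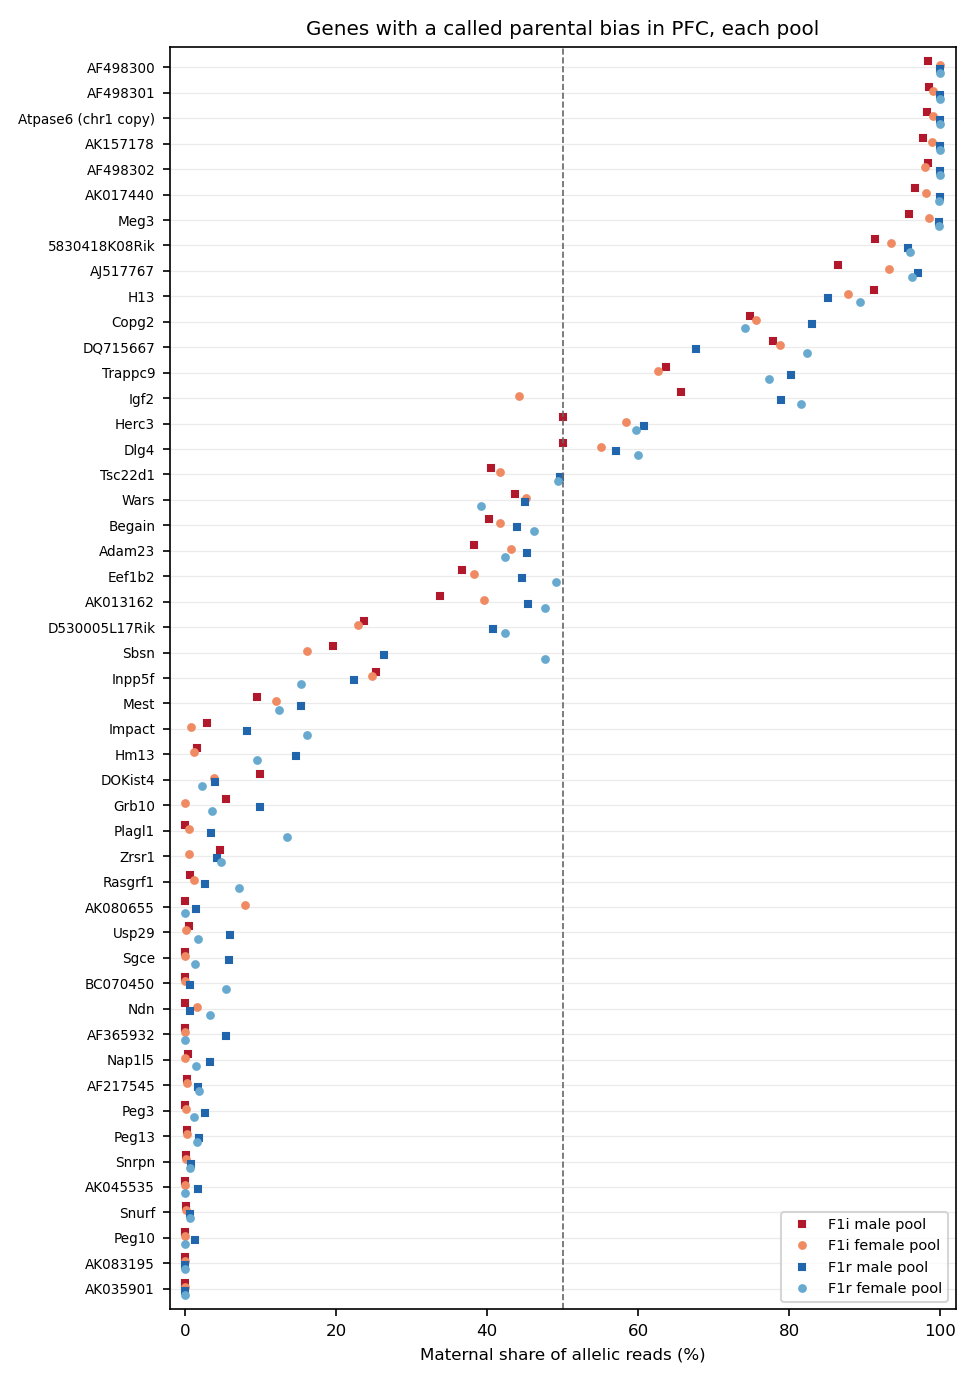
The maternal share of allelic reads (%, x axis) is drawn for the 49 called genes in each PFC pool, with F1i pools in red tones above F1r pools in blue tones on each line, squares for male and circles for female pools, and a dashed line at 50%. The 27 genes at the extremes lie within 5% of a single parent on average, and 8 genes from Herc3 to AK013162 lie within 10% of equal shares.

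The domain on chromosome 7 that is deleted in Prader-Willi and Angelman syndromes held the most paternal calls. Snrpn, which encodes a spliceosomal protein of neurons, had maternal shares of 0.104% and 0.191% in the F1i male and female pools, against 0.845% and 0.663% in the F1r male and female pools. Every pool was thus below 1%, and log2 was -16.28 ± 0.19 (edgeR adjusted p = 4.07e-23). Here and below, ± after a log2 value or log2 difference is its size divided by the square root of edgeR's F statistic. It is not a standard error from the model, and it can be smaller than the counting error where one allele has few reads. For Snrpn the maternal allele had 41 reads when it was B6 and 9 when it was CAST. Snurf, the upstream reading frame of the same transcript, shares its bases with Snrpn and had 0.105%, 0.136%, 0.698% and 0.610% in the same order of pools. Ndn, which encodes necdin, a growth suppressor of neurons, had 0% of 226 reads and 1.58% of 316 reads in F1i, against 0.730% of 137 and 3.26% of 215 reads in F1r (log2 -12.07 ± 0.48, edgeR adjusted p = 1.65e-13).

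Entries of chromosome 7 with no protein name were also paternal. BC070450 was placed at chr7:67083554-67085358 outside annotated genes, and its maternal share was 0% in both F1i pools, against 0.645% and 5.45% in the F1r male and female pools. DOKist4, placed at chr7:68234549-68235523, had 10.0% and 3.85% in F1i, against 4.04% and 2.27% in F1r. AK080655, AK083195 and AK035901 were placed on the same 3 bases at chr7:69126912-69127165. They are read here as 1 transcript, although each is counted as a call. AK080655, the deepest, had 0% and 7.89% in F1i against 1.49% and 0% in F1r. AK045535 had 0% in all but the F1r male pool, where 1.79% of its reads were maternal. Mkrn3, a makorin ring finger gene under the read minimum, had 0 maternal and 14 paternal reads over the 4 pools, which allows a maternal share of up to 23.2% (Clopper-Pearson 95% interval). Peg12, with 33 maternal and 44 paternal reads, was also under the minimum.

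Ube3a, the ubiquitin ligase lost in Angelman syndrome, is known as maternal in neurons and was not called. Its maternal share was 48.6% and 57.7% in the F1i male and female pools, against 23.8% and 42.9% in the F1r male and female pools, on 220 reads in all. The only tested base in its annotated exons averaged 51.5%. A base 1581 bases beyond its annotated end, at chr7:66563678, was called maternal with 74.1% of 27 and 91.7% of 84 reads in F1i, against 91.7% of 84 and 94.1% of 34 reads in F1r. Log2 there was 6.30 ± 0.55 (edgeR adjusted p = 5.53e-13). The 4 pools agree in side at that base, while those at the gene entry fall on both sides of 50%.

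The Peg3 domain near the start of chromosome 7 held 3 paternal calls. Peg3, a zinc finger protein of neurons and placenta, had maternal shares of 0.0710% and 0.107% in the F1i male and female pools, against 2.67% and 1.24% in the F1r male and female pools (log2 -15.54 ± 0.27, edgeR adjusted p = 2.84e-20). All 21 of its bases were called paternal, including the coding base printed at chr7:6660325. Usp29, a ubiquitin-specific protease beside it, had 0.521% and 0.186% in F1i, against 5.97% and 1.73% in F1r. AF365932, placed within Usp29 at chr7:6914059-6916009, had 0% in both F1i pools and 5.41% and 0% in the F1r male and female pools. Zim1, a zinc finger gene of the domain known as maternal, stayed under the read minimum with 24 maternal and 22 paternal reads.

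The Dlk1-Dio3 domain on chromosome 12 carried the noncoding RNAs that are read from the mother. Meg3, a long noncoding RNA, had maternal shares of 95.8% and 98.5% in the F1i male and female pools, against 99.8% and 99.9% in the F1r male and female pools. All 13 of its bases were called maternal, and log2 was 14.56 ± 0.28 (edgeR adjusted p = 2.64e-19). AK017440, placed within Meg3, had 96.6% and 98.0% in F1i, against 99.9% in both F1r pools. The entries AF498300, AF498301 and AF498302, each with a base placed by its counts in the snoRNA host Rian, AF498300 and AF498301 on the same one, ranged from 98.0% to 100% over all pools, and AK157178 on the same chromosome ranged from 97.7% to 100%. AJ517767, placed in the microRNA host Mirg at chr12:110986394-110987352, was lowest in the F1i male pool, with 86.4% and 93.1% in F1i against 97.1% and 96.2% in F1r.

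Coding genes on chromosome 12 did not share this maternal pattern. Dio3, the thyroid hormone deiodinase at the far end of the domain and known as paternal in the embryo, had 65.6% and 48.4% in F1i, against 55.6% and 50% in F1r, on 92 reads, and was not called. Begain, which encodes a protein that binds the postsynaptic scaffold and lies at chr12:110270397-110291589, was weakly paternal, with maternal shares of 40.2% and 41.7% in F1i, against 43.9% and 46.2% in F1r (log2 -0.80 ± 0.12, edgeR adjusted p = 0.000659). Of its 6 tested bases 1 was called, the one printed at chr12:110271680, with 27.5% and 26.9% in F1i, against 38.9% and 50% in F1r. Wars, the cytoplasmic tryptophan tRNA ligase next to it at chr12:110098240-110132384, had 43.7% and 45.2% in F1i, against 45.1% and 39.2% in F1r (log2 -0.79 ± 0.12, edgeR adjusted p = 0.000734). All 4 pools lay below 50% in both genes.

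On chromosome 6 the Peg10 domain held 2 near-complete paternal genes beside an equal one. Peg10, a gene derived from a retrotransposon, had maternal reads in a single pool, 1.33% of 75 reads in F1r males, and 0% in the other pools. Sgce, the epsilon-sarcoglycan altered in myoclonus dystonia, had 0% in both F1i pools, against 5.88% and 1.28% in the F1r male and female pools. Ppp1r9a, which encodes the spine protein neurabin and is known as maternal in some tissues, had 49.6% and 50.7% in F1i, against 51.8% and 50.7% in F1r, on 8873 reads, and was not called.

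The Mest domain showed the opposite parents within one gene body. Mest, an alpha/beta hydrolase, had maternal shares of 9.49% and 12.1% in the F1i male and female pools, against 15.4% and 12.5% in the F1r male and female pools (log2 -5.65 ± 0.32, edgeR adjusted p = 9.42e-11). Copg2, a coatomer subunit that runs against Mest and overlaps its end, had 74.8% and 75.6% in F1i, against 83.0% and 74.1% in F1r (log2 3.49 ± 0.24, edgeR adjusted p = 2.83e-09). AF217545, placed in a Copg2 intron at chr6:30755116-30757359, had 0.235% and 0.220% in F1i, against 1.79% and 1.84% in F1r. In the genome alignment the 3 tested coding bases of Copg2 were called maternal, with means of 78.5% to 79.2%. The 17 bases of its intron were called paternal, with means of 0.752% to 3.22%, and so was the untranslated base it shares with Mest, with 11.9%. The alignments carry no strand, so at the shared base reads of the 2 genes cannot be told apart.

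Nap1l5 sits in an intron of Herc3, and the 2 genes went opposite ways. Nap1l5, a nucleosome assembly protein of brain, had 0.367% and 0% in F1i, against 3.25% and 1.52% in F1r (log2 -14.37 ± 0.39, edgeR adjusted p = 1.45e-16). Herc3, a HECT ubiquitin ligase, had 50.1% and 58.4% in F1i, against 60.7% and 59.8% in F1r (log2 0.86 ± 0.13, edgeR adjusted p = 0.000522). Its 19 exonic bases in the genome alignment held 2 maternal calls, 1 coding and 1 untranslated. The 2 alignments differed at other untranslated bases. At chr6:58869294 the maternal share was 12.2% and 20.3% in F1i, against 86.3% and 96.0% in F1r, in the genome alignment. In the transcript alignment the same base had 36.9% and 59.1% in F1i, against 63.1% and 67.9% in F1r.

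The Trappc9 domain on chromosome 15 combined a partial maternal gene, a near-complete paternal noncoding RNA and maternal bases outside annotated genes. Trappc9, a subunit of a vesicle tethering complex, had maternal shares of 63.7% and 62.6% in the F1i male and female pools, against 80.2% and 77.3% in the F1r male and female pools (log2 2.65 ± 0.14, edgeR adjusted p = 3.17e-11). Every pool was above 60%, and the F1r pools were above the F1i pools, with a lean to B6 across both crosses (strain log2 CAST:B6 -0.55, edgeR adjusted p = 5.29e-06). Peg13, a noncoding RNA inside its intron, had 0.219% and 0.227% in F1i, against 1.89% and 1.55% in F1r (log2 -14.59 ± 0.17, edgeR adjusted p = 3.19e-23). In the genome alignment 11 of 12 coding and 2 of 2 untranslated Trappc9 bases were called maternal, and 31 of 31 intronic bases were called paternal.

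Kcnk9, a potassium channel of the same domain known as maternal, stayed under the read minimum with 50 maternal and 8 paternal reads, a maternal share of 86.2% (Clopper-Pearson 95% interval 74.6% to 93.9%). Beyond its annotated end, 3 bases between 1501 and 5322 bases away were called maternal, with means of 93.3% to 96.0%. The middle one, at chr15:72337996, had 97.7% of 44 and 93.1% of 29 reads in F1i, against 96.4% of 28 and 96.8% of 31 reads in F1r. Eif2c2, which encodes Argonaute 2, was not called, with 35.3% and 43.3% in F1i against 86.1% and 84.6% in F1r on 96 reads, and leaned to B6 in both crosses. Between 710 and 2817 bases beyond its end, 3 bases were called maternal with means of 74.2% to 77.2%. Chrac1, which encodes a histone-fold subunit of a chromatin remodelling complex, runs towards the same stretch, and 2 of these bases lay nearer to its end, 1254 and 1376 bases beyond it. The alignments carry no strand, so reads of Eif2c2 and of Chrac1 cannot be told apart there. DQ715667, an entry of chromosome 15 with 1 base, was maternal with 77.8% and 78.8% in F1i, against 67.6% and 82.4% in F1r (log2 3.41 ± 0.64, edgeR adjusted p = 0.00770), and the call was lost in 3 of 4 fits that left out a pool, with adjusted p up to 0.225. Its 18 and 33 reads in the F1i male and female pools and 34 in each F1r pool nearly match those at chr15:72929238, 18 and 33 in F1i and 33 and 34 in F1r, and the 2 are not counted as separate evidence.

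**Figure D3:**
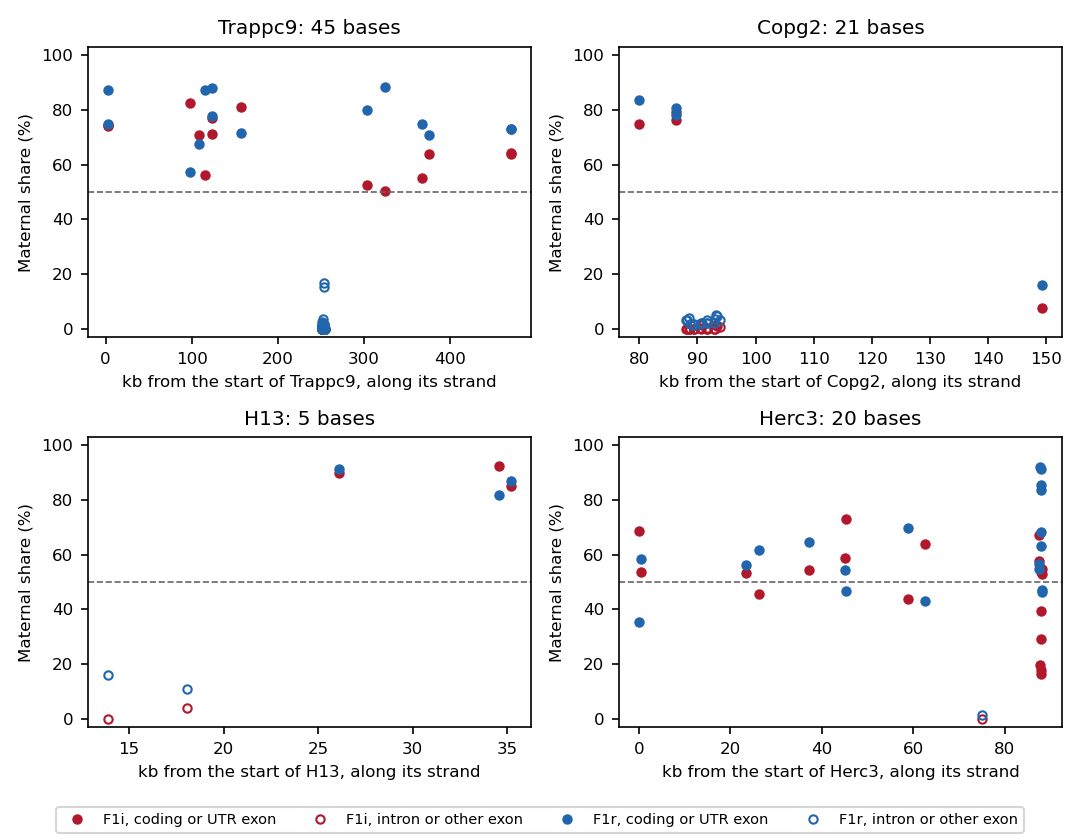
The mean maternal share (%, y axis) of the F1i pools (red) and of the F1r pools (blue) is drawn at each tested genomic base along Trappc9, Copg2, H13 and Herc3, with the distance from the gene's start in kb along its strand on the x axis. Filled points are coding or untranslated exons of the named gene, open points are introns or other exons, and in each panel the open points lie below 20% and inside a gene whose exonic bases called maternal are above 50%.

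H13 on chromosome 2, which encodes signal peptide peptidase, likewise changed parent along its length. Its maternal share was 91.2% and 87.8% in the F1i male and female pools, against 85.1% and 89.4% in the F1r male and female pools (log2 5.82 ± 0.27, edgeR adjusted p = 2.41e-12). The Hm13 entry, placed on an exon within H13 at chr2:152507873-152509095, was paternal with 1.54% and 1.18% in F1i, against 14.8% and 9.59% in F1r (log2 -8.89 ± 0.59, edgeR adjusted p = 9.90e-10). Mcts2, a retrogene inside an H13 intron, was under the read minimum with 8 maternal and 70 paternal reads (10.3%, Clopper-Pearson 95% interval 4.53% to 19.2%). Upstream of and at Mcts2, the 2 tested genomic bases were called paternal with means of 7.93% and 7.47%. The 3 coding bases of H13 downstream of it were called maternal with means of 86.0% to 90.5%.

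Single paternal genes lay on chromosomes 9, 10, 11 and 18 and near the end of chromosome 7. Rasgrf1, an exchange factor for Ras at the synapse, had maternal shares of 0.704% and 1.13% in F1i, against 2.70% and 7.10% in F1r (log2 -10.95 ± 0.28, edgeR adjusted p = 5.51e-17), and all 12 of its bases were called. Impact, which restrains the translational stress kinase GCN2, had 2.86% and 0.760% in F1i, against 8.20% and 16.1% in F1r (log2 -8.89 ± 0.31, edgeR adjusted p = 1.11e-14). Zrsr1, a splicing factor retrogene in an intron of Commd1, had 4.58% and 0.5% in F1i, against 4.29% and 4.73% in F1r. These genes kept a paternal share above 80% in every pool.

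Plagl1, a zinc finger transcription factor, had 0% and 0.581% in F1i, against 3.51% and 13.6% in F1r. Grb10, an adaptor of insulin and growth factor receptors, had 5.41% of 37 and 0% of 50 reads in F1i, against 10.0% of 40 and 3.57% of 28 reads in F1r (log2 -8.83 ± 0.83, edgeR adjusted p = 4.32e-07). Grb10 is known as paternal in neurons and maternal elsewhere. In whole embryonic brain at day 15, for which 1 summed value per cross was used, its maternal share was 64.3% in F1i and 74.6% in F1r. Inpp5f, an inositol phosphatase with a neuronal imprinted transcript, was partial with 25.4% and 24.7% in F1i, against 22.4% and 15.4% in F1r (log2 -3.71 ± 0.31, edgeR adjusted p = 5.07e-08).

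Igf2, the growth factor known as paternal in most embryonic tissues, was called maternal in PFC. Its shares were 65.7% and 44.2% in the F1i male and female pools, against 78.9% and 81.6% in the F1r male and female pools, and the F1i female pool was on the other side of 50% (log2 2.09 ± 0.45, edgeR adjusted p = 0.0361). Of its 4 bases, the one printed at chr7:149838037 had 87.5% of 16 and 85.3% of 34 reads in F1i, against 77.8% of 27 and 70% of 30 reads in F1r. Transcript base 4646 leaned to B6 in both crosses, with 28.6% and 4.55% maternal in F1i against 77.3% and 90.0% in F1r. In embryonic brain the gene was on the paternal side, with a maternal share of 33.9% in F1i and 24.1% in F1r. The call was lost in 3 of the 4 fits that left out a pool, with adjusted p up to 0.445.

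Weak paternal calls came from genes that were picked out after their values were seen, apart from AK013162. On chromosome 1, Adam23, a membrane protein of synapses, had maternal shares of 38.3% and 43.1% in F1i, against 45.3% and 42.4% in F1r (log2 -0.88 ± 0.13, edgeR adjusted p = 0.000669). Eef1b2, a translation elongation factor in the same stretch at chr1:63223399-63227060, had 36.7% and 38.2% in F1i, against 44.6% and 49.1% in F1r (log2 -0.90 ± 0.16, edgeR adjusted p = 0.00412). AK013162, placed in an untranslated exon of Nkain1 on chromosome 4, had 33.7% and 39.6% in F1i, against 45.5% and 47.7% in F1r. In these 3 genes each F1i pool was below 44% and each F1r pool below 50%.

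Tsc22d1, a leucine zipper regulator of transcription, came closest to equal among the calls, with 40.5% and 41.7% in F1i, against 49.6% and 49.4% in F1r, and none of its 10 tested bases was called alone. Sbsn, which encodes suprabasin, had 19.6% and 16.1% in F1i, against 26.3% and 47.6% in F1r, and D530005L17Rik had 23.7% and 22.9% in F1i, against 40.7% and 42.4% in F1r. Leaving out single pools ended the calls of Tsc22d1 and D530005L17Rik in 4 of 4 fits, of Sbsn and Eef1b2 in 3 of 4 and of Wars in 1 of 4. With the fit lacking a pool, adjusted p reached 0.291 for Tsc22d1, 0.365 for D530005L17Rik, 0.230 for Sbsn, 0.102 for Eef1b2 and 0.114 for Wars.

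Dlg4, which encodes the postsynaptic scaffold PSD-95 and was also picked out after its values were seen, had maternal shares of 50.1% and 55.1% in F1i, against 57.1% and 60.03% in F1r (log2 0.66 ± 0.13, edgeR adjusted p = 0.0108). This call came from 2 neighbouring bases out of 5. Transcript base 2330 had 83.3% of 78 and 92.6% of 68 reads in F1i, against 98.2% of 111 and 98.2% of 170 reads in F1r, and base 2335 averaged 97.7%. The other 3 bases averaged 48.9% to 52.0% and were not called. None of the 5 bases tested within Dlg4 in the genome alignment was called, with means of 48.1% to 51.5%. The gene's call was lost in 2 of 4 fits that left out a pool, with adjusted p up to 0.330.

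Some calls were lost in other fits, and the cause was not tested. With X-linked genes in the same edgeR fit, 17 of the 49 calls were lost, among them all 8 with mean shares between 40% and 60% and 5 near-complete genes, AF365932, AK035901, AK083195, BC070450 and Grb10. Adjusted p was then 0.872 for Herc3, 0.216 for Begain, 0.385 for Adam23 and for AK013162, 0.594 for Wars and 0.959 for Igf2. H13, Copg2, Trappc9, Mest and Inpp5f kept their calls there and in every other setting. DESeq2 ended 9 calls, those of AK083195, AK035901, DQ715667, Igf2, Dlg4, Eef1b2, Sbsn, Tsc22d1 and D530005L17Rik, and kept Herc3, Begain, Adam23 and Wars. With robust dispersion estimates the calls of Atpase6, Meg3, Rasgrf1 and Impact were lost, with adjusted p of 0.129, 0.20, 0.326 and 0.368, although every pool of these genes lay above 80% for the called parent.

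Maternal calls with mitochondrial sequence formed a group apart. The 5830418K08Rik entry on chromosome 9 had maternal shares of 91.4% and 93.4% in F1i, against 95.7% and 96.0% in F1r (log2 8.20 ± 0.19, edgeR adjusted p = 5.68e-18). Transcript base 4207 held 85.5% of its reads and was maternal in 99.7% and 100% of reads in F1i, against 99.1% and 99.6% in F1r. The 2 nearest bases, 3850 and 3859, were also on the maternal side and were not called. Base 3850 had 93.5% of 31 and 93.8% of 64 reads in F1i, and base 3859 had 60% of 30 and 74.6% of 63 reads in F1i, against 100% of 1 or 2 reads in each F1r pool at both. The 10 bases before these summed to 48.1% of 52 and 48.4% of 93 reads in F1i, against 48.3% of 58 and 57.4% of 68 reads in F1r. Both windows are shown to compare the genomic place of base 4207 with the mitochondrial genome, with the informative base in capitals. They are identical at 28 of 29 bases and differ by T13C, and the mitochondrial reference carries the B6 base at position 15. The stretch of 1054 bases around it matches mitochondrial DNA at 73.1% identity. The part of mitochondrial reads in this call was not tested.
5830418K08Rik, A15G, chr9:15125823-15125851: aagctaagaccttaActagattggcagga
Mitochondrial genome, chrM:5074-5102: aagctaagacctcaActagattggcagga

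The chromosome 1 copy of Atpase6 had 98.2% and 99.1% maternal reads in F1i, against 99.9% in both F1r pools, and it held 4.98% and 6.11% of the tested reads in F1i, against 8.32% and 6.77% in F1r. The mitochondrial Atpase6 entry had 98.1% and 99.1% in F1i, against 99.9% in both F1r pools. In the genome alignment 37 called bases, all maternal, lay in 5 autosomal stretches that match mitochondrial DNA at 93.0% to 99.9% identity.

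Single bases were tested in the same way. Of 51055 transcript bases tested, 193 were called (0.378%), and 190 of them lay in called genes. Of 32 called genes with more than 1 tested base, 22 had every base on one side of 50% in every pool, and 0 held called bases of opposite parents. The genes were called from the sums of these same bases, so these counts describe the calls and are no support for them. The share among genes that were not called was not computed. The weak calls had few or no called bases: 0 of 14 tested in AK013162, 0 of 16 in Adam23, 0 of 10 in Tsc22d1, 1 of 22 in Wars and 1 of 6 in Begain. In the genome alignment of the same reads, 301 of 46909 bases were called (0.642%), 264 of them outside the stretches that match mitochondrial DNA. Some of the 264 reached the read minimum through the F1i pools alone, as did some inside those stretches. At chr12:4077533 the male and female pools held 251 and 600 reads in F1i, against 2 and 1 in F1r. At chr18:65997099 they held 737 and 805 in F1i, against 1 and 2 in F1r. The swap between crosses rests on very few reads at such bases. Joined where they lay within 500 kb of each other, the 301 called bases formed 37 clusters, of which 16 held 3 or more bases and 5 held both parents. From Meg3 to Mirg, 92 of 93 tested bases were maternal.

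Reads from the allele that was otherwise silent were not symmetric between crosses. Among 26 genes with at least 95% of reads from one parent, leaving out Atpase6, the silent allele's share was higher when it was B6 in 23, higher when it was CAST in 1 and equal in 2. Its median was 1.87% when it was B6 and 0.117% when it was CAST. Both directions of imprinting showed this, with medians of 1.68% and 0% in the 6 maternal genes and 1.99% and 0.169% in the 20 paternal genes. For Peg13 the silent allele held 96 of 5514 reads when it was B6 and 17 of 7587 reads when it was CAST, and for Meg3 177 of 6770 and 19 of 12658. AK080655 was the gene with the opposite order, with 1 of 115 and 3 of 62 reads. The mitochondrial reads, at 1.32% and 0.711% paternal in F1i against 0.0817% and 0.0830% in F1r, had the same order. Several of the 26 entries share bases, so they are not independent, and the part of read alignment or of strain differences in this order was not tested.

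**Figure D4:**
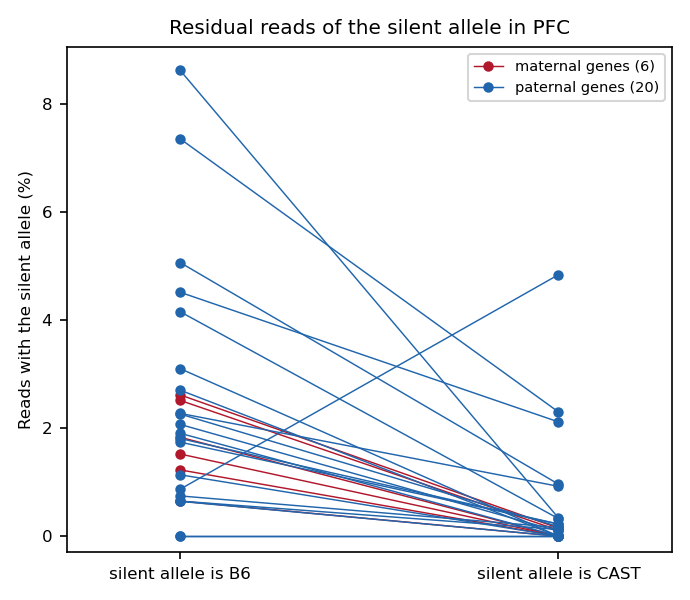
For 26 genes with at least 95% of reads from one parent, the percentage of reads from the silent allele (y axis) is joined between the cross where that allele is B6 (left) and the cross where it is CAST (right), with 6 maternal genes in red and 20 paternal genes in blue. Of the 26 lines, 23 run downward, 1 runs upward and 2 stay at 0%.

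Lists of genes known as imprinted split by parent. Of 34 genes listed as paternal, 18 passed the read minimum, of which 15 were called paternal (0.299% of all genes tested), Igf2 was called maternal, and Ampd3 and Dio3 were not called. Their median maternal share was 2.51%, against 49.5% over all tested genes. Of 39 genes listed as maternal, 17 passed, of which Meg3, H13 and Trappc9 were called maternal (0.145% of all genes tested), Begain was called paternal and 13 were not called, with a median of 50.7%. Of 8 tested genes listed as imprinted by isoform or tissue, Copg2 was maternal, Grb10 was paternal and 6 were not called, beside 0.444% called of all genes tested. A further 9 listed genes were under the read minimum. The uncalled genes of the maternal list ranged up to 62.3% for Eif2c2 and 61.8% for Slc22a3, an organic cation transporter.

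No gene of the list of those that maintain or erase imprints was called, beside 0.444% of all genes tested. With 11 tested genes, a count of 0 does not set this list apart from other genes. The list includes the methyltransferases Dnmt1 and Dnmt3a, the repressor Trim28 and the zinc finger protein Zfp445. Its 11 tested genes had 0 calls by edgeR and 0 with an unadjusted p below 0.05, beside 583 of the 11035 genes tested. Dnmt1 had 45.6% and 48.2% in F1i, against 53.3% and 54.4% in F1r. The median maternal share of the 11 genes was 50.2% and their means ranged from 48.8% to 54.9%.

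Gnas, the stimulatory G protein subunit with several imprinted transcripts, had 20.1% and 33.7% maternal reads in F1i, against 66.7% and 77.2% in F1r, and was not called. It leaned to B6 in both crosses (strain log2 CAST:B6 -1.43, edgeR adjusted p = 6.77e-09). Strain bias was common: 3967 genes were called for it (35.9%), 1285 to CAST and 2682 to B6, and with TMM scaling 1981 to CAST and 1992 to B6. Among the 49 genes with a parental call, 26 leaned to B6 and 0 to CAST. In near-complete genes this strain value rests on the few reads of the silent allele. For Peg13 these were 96 when it was B6 and 17 when it was CAST. The lean of such genes is therefore the asymmetry of silent-allele reads described above, and not a separate observation. Atp2b2 and Cables1, picked out after their values were seen, passed the adjusted p but had means on opposite sides of 50% in the 2 crosses and were not called. Atp2b2, the plasma membrane calcium pump 2, had 62.4% and 61.9% in F1i, against 47.8% in both F1r pools. PMCA2 is the same transcript under another name and completes the 3 genes with mixed sides.

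The PFC calls were mostly shared with POA, where 133 of 11511 genes were called (1.16%). In each tissue a gene's counts are those of its transcript with most reads there, so the bases compared may differ between tissues. Of the 49 PFC calls, 42 had the same call in POA. In embryonic brain 43 had their F1i and F1r values on the called side of 50%. This compares sides only, without a test, and the share of all genes was not computed. The difference in parental bias between PFC and POA was called for 33 of 10546 genes (0.313%), of which 8 had a PFC call. Begain was less paternal in PFC, with 43.0 ± 2.61% maternal in PFC and 21.8 ± 5.04% in POA (SD, n = 4 pools each; log2 difference 2.91 ± 0.18, edgeR adjusted p = 1.54e-11). Herc3 was less maternal in PFC, with pools of 50.1%, 58.4%, 60.7% and 59.8%, against 74.4%, 76.0%, 79.4% and 79.2% in POA (log2 difference -2.69 ± 0.18, edgeR adjusted p = 6.76e-11). For both genes the PFC and POA pools did not overlap.

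The Hm13 entry was more paternal in PFC, with maternal shares of 1.18% to 14.8% in PFC and 24.4% to 43.2% in POA (log2 difference -7.21 ± 0.74, edgeR adjusted p = 6.37e-07). Copg2 was less maternal in PFC, with 74.1% to 83.0% in PFC and 86.6% to 95.6% in POA (log2 difference -3.16 ± 0.40, edgeR adjusted p = 2.78e-05). Ppp1r9a, equal in PFC, had 54.2% to 65.7% in POA (log2 difference -1.03 ± 0.13, edgeR adjusted p = 3.15e-05). These 5 differences remained in all 8 fits that left out a pool. The marker sums differ between the regions, and the part of cell types in these differences was not tested.

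Other differences from POA were lost without single pools. Rasgrf1 had 0.704% to 7.10% maternal in PFC and 0.204% to 0.682% in POA, and the difference was lost without the F1i female PFC pool (edgeR adjusted p = 0.112). AJ517767 had 86.4% to 97.1% in PFC and 98.8% to 100% in POA, and its difference was lost without the F1r female PFC pool (edgeR adjusted p = 0.0505). Mest had 9.49% to 15.4% in PFC and 19.4% to 38.7% in POA, and its difference remained in 4 of 8 such fits. The 5830418K08Rik difference was lost without the F1i female POA pool, with an adjusted p of 0.622, and that of Gnas remained in 3 of 8 fits.

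**Figure D5:**
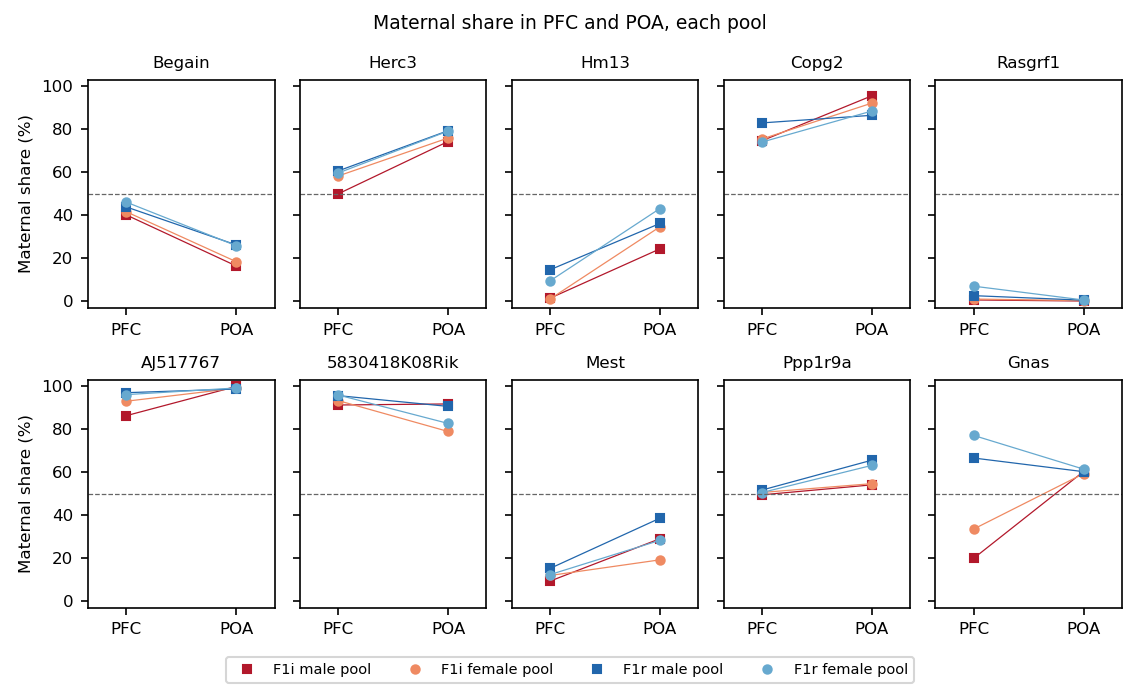
The maternal share (%, y axis) of each pool is joined between PFC (left) and POA (right) for 10 genes, with F1i pools in red tones, F1r pools in blue tones, squares for male and circles for female pools and a dashed line at 50%; the lines join pools of the same cross and sex, since the labels do not say whether the animals are the same. Begain falls further below 50% in POA, Herc3 and Copg2 lie higher in POA, and Gnas lies on both sides of 50% in PFC but near 60% in all POA pools.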

How the data were processed

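Polyadenylated RNA of the F1 pools was read for 36 cycles, and the submitters' processing notes name Novoalign and build mm9. The authors deposited read counts of the CAST base and of the B6 base at each informative base, summed over the 2 technical libraries of a pool, for a transcript and a genome alignment. The deposited base calls give the B6 and the CAST base as text. No library correction by the authors is recorded in the sources used here.

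Counts were summed per gene over the bases of its 1 transcript with most reads, listing each base once. That transcript was chosen in each tissue apart, and tissues were joined by gene name. PFC, POA and embryonic values of a gene may therefore rest on different transcripts or bases. edgeR 4.0.16 (R 4.3.3, limma 3.58.1) fitted glmQLFit with a term per pool, the allele and allele by cross, with the pool total as library size, on autosomes 1 to 19 with a mean of at least 20 reads per pool. Adjusted p-values follow Benjamini-Hochberg over all genes tested, with a threshold of 0.05. PFC minus POA used allele by cross by region. DESeq2 1.42.0, Fisher's test and fits without each pool were alternatives. On counts simulated for 11035 PFC genes, 200 of 200 changed genes (5%, 25%, 75% or 95% maternal, 50 each) were recovered, and 12 of 10835 unchanged genes were called.

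Transcript bases were placed on NCBIM37 by matching counts and shared offsets to the genome alignment, and 323 of 324 placed bases carried the expected reference base. Annotations are GENCODE vM1 on NCBIM37. Mitochondrial matches came from blastn 2.17.0. Clopper-Pearson 95% intervals cover counting error only, since reads are not independent molecules.

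All called genes on a list were named, and of the 27 on no list the 10 of smallest adjusted p per direction, with others named as picked after their values were seen. The genes, lists and tests were chosen with earlier results of these data known. Technical libraries were not tested as replicates, X-linked genes and the noncoding RNA database alignment were not used here, and 0 per-sample columns were left unmapped.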

Additional observations from a re-analysis of the deposited data

Results flagged for a closer look

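In 7 of 75 genes 1 pool stood apart from the other 3 in its maternal share, by a gap above Dixon's 95% critical value for 4 samples. The rate of about 1 in 20 behind that value is for continuous values of like samples. It cannot be set against 7 of 75 here, since the pools come from 2 crosses and some shares tie. These were Zrsr1 in the F1i female pool (0.5%), BC070450 in the F1r female pool (5.45%), Peg10 (1.33%), Copg2 (83.0%), AF365932 (5.41%) and AK045535 (1.79%) in the F1r male pool, and AF498300 in the F1i male pool (98.4%). All but Copg2 are near-complete genes in which the gap is a few reads.

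The parental bias of 13 entries differed between PFC and POA by the edgeR test of the difference itself (log2 difference PFC minus POA). It was 2.91 for Begain, -2.69 for Herc3, -7.21 for Hm13, -3.16 for Copg2, -1.03 for Ppp1r9a and for Neurabin, which is the same gene, 4.57 for Rasgrf1, -6.12 for AJ517767, 2.96 for 5830418K08Rik, -2.85 for Mest, -1.27 for Gnas, -1.63 for Cables1 and -3.98 for mKIAA0966. The 3 bases of mKIAA0966 have the same counts as bases 800, 1355 and 1367 of Inpp5f, and over all its bases Inpp5f differed by -1.09 (edgeR adjusted p = 0.419).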

How the results depend on the processing

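No paired analysis was possible because the replicate numbers of the labels mark technical libraries, which the deposited tables sum into 1 column per pool. Sex is what pools of different crosses share, and with an allele by sex term, the nearest to a block, the parental calls numbered 60 and the differences between PFC and POA 42. The 49 parental calls became 32 with X-linked genes in the fit and 137 with Fisher's exact test, which carries counting error only, and lay between 43 and 46 in the 4 fits that left out a pool, where the lone pool of a cross is assumed to vary like the others. The other settings gave 34 (deepest base of each gene) to 60, and DESeq2 gave 40. Leaving out Atpase6, chosen after seeing the data, gave 48. Of the 49 genes, 28 kept their call in every setting that could test them. Over 815 gene and setting pairs, 751 kept the call, 63 lost it and 1 turned round: Dlg4 at its deepest base (-0.067). Robust dispersion ended 4 calls, those of Atpase6, Meg3, Impact and Rasgrf1. The cause of these changes was not tested.

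Strain calls, 3967 in the fit reported, lay between 2865 and 3104 without a pool. Transcript bases numbered 123 calls with at least 50 reads per pool, where 23407 bases were tested, against 193 of 51055 in the fit reported, and lay between 164 and 176 without a pool. Genomic bases numbered 207 with that minimum and 248 to 260 without a pool. The 33 differences between PFC and POA became 10 with DESeq2 and 12 to 90 without a pool, 90 without the F1r male POA pool.

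The 8 called genes with mean shares between 40% and 60% each had at least 540 reads per pool. Recovery of shares of that size was not simulated.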

Other observations

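Of the 33 genes whose parental bias differed between PFC and POA, 25 had no PFC call, and 15 of these were called in neither region. Of these 25, 9 lay on chromosome 7, 6 on chromosome 18 and 4 on chromosome 16. The share of tested genes on each chromosome was not computed, so these counts set no chromosome apart. Brunol4 and Brul4 on chromosome 18 have the same values and are counted apart. Usp46, which encodes a ubiquitin-specific protease, had no gene call in PFC. In the genome alignment it held 2 paternal calls among 37 untranslated bases and 0 among 2 coding bases, beside 0.642% of all genomic bases tested. The 2 called bases are neighbours, chr5:74396347 and chr5:74396348, with 105 and 106 reads, so they are not separate evidence. Their edgeR adjusted p was 0.0445 and 0.0212. Adam23 held 1 paternal call among 6 untranslated bases and 0 among 7 coding bases, although the means of its coding bases, 35.9% to 46.0%, all lay below 50%. In Rasgrf1 all 11 coding bases and 4 of 5 intronic bases were paternal, and the remaining intronic base averaged 56.2% and was not called. That base leaned to B6 in both crosses, with 33.3% and 12.8% maternal in the F1i male and female pools, against 88.5% and 90% in the F1r male and female pools. The 3 bases in the Commd1 intron that holds Zrsr1 were paternal, with means of 2% to 4.81%.

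Blcap, a gene near the neuronatin domain that is known as maternal in brain, was not called in PFC, with 59.8% and 61.7% maternal in F1i, against 54.9% and 50% in F1r on 394 reads. It averaged 56.6 ± 5.27% in PFC and 69.7 ± 4.72% in POA (SD, n = 4 pools each), where it was called maternal, and the difference between the regions did not pass the test (edgeR adjusted p = 0.157). In embryonic brain its maternal share was 84.0% in F1i and 86.7% in F1r.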
